A study of Homo sapiens with 2 samples.

Results

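Accessible chromatin was read at the loci of 9 genes of the TGF-beta pathway in B2B cells: the ligands TGFB1, TGFB2 and TGFB3, the receptors TGFBR1 and TGFBR2, the signal transducers SMAD2, SMAD3 and SMAD4, and the inhibitor SMAD7. The genes were chosen by name, out of 20007 protein-coding genes in the annotation, and each locus ran from 100 kb upstream to 100 kb downstream of its gene. These loci held 85 of the 37661 regions that the peaks of both replicates formed genome-wide. B2B is BEAS-2B, an immortalized, non-cancerous line that the labels give as human bronchial epithelial and wild type (WT). It was grown in medium with fetal bovine serum, and the labels name no treatment. ATAC-seq, which marks open DNA by the insertions of the Tn5 transposase, was run on 2 biological replicates. All samples form 1 group, which leaves nothing to compare between conditions, and all values describe this single line. A549 cells and the TCGA samples were not analysed here.

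TGF-beta ligands are secreted in a latent form, and once released they bring together the type II receptor TGFBR2 and the type I receptor TGFBR1. The receptor complex phosphorylates SMAD2 and SMAD3, which join SMAD4 and bind DNA in the nucleus, often next to other factors such as AP-1, the dimer of JUN and FOS proteins. SMAD7 is induced by the same signal and blocks the receptors, closing a negative feedback loop. In epithelial cells the pathway is known for arresting growth and for driving the epithelial-mesenchymal transition.

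On chromosomes 1 to 22, X and Y, replicate 1 had 28735 peaks and replicate 2 had 36162. The fold enrichment of a peak is the number of fragments at its summit over the local background, with 1 added to each. Its median over all peaks was 6.06 in replicate 1 and 6.57 in replicate 2, with a median of 35 and 30 fragments at the summit. No listed peak had fewer than 16 fragments in replicate 1 or 13 in replicate 2, so a site without a peak was below detection and cannot be called closed. Read totals are not given, and the usual background was 4.77 fragments in replicate 1 and 3.41 in replicate 2. The labelled cell type was checked on promoters of marker genes. Among 12 epithelial markers, KRT18 was open at its promoter in each replicate, and the other 11, CDH1, EPCAM, KRT5 and TP63 among them, had no promoter peak. Of 12 mesenchymal markers 9 were open in each replicate, including VIM, CDH2, FN1 and ZEB1. Over all protein-coding genes 52.3% were. Of the other mesenchymal markers, COL1A2 and COL3A1 had no promoter peak, and THY1 had one in replicate 2 alone. The promoter peaks of these lists, which were chosen with earlier results known, did not bear out the epithelial label.

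All 9 genes carried a promoter peak in both replicates, where the promoter spans 1 kb on each side of the canonical GENCODE start. This was so for 52.3% of all protein-coding genes. It was so for 68.2% of the 14868 genes with at least as many promoter CpG dinucleotides as the lowest of the 9. CpG were counted within 500 bp of the start. Peak strength split the set. The promoters of the receptors and of SMAD2 stood highest, those of TGFB1 and SMAD7 lowest. The median over the 9 was 5.54 in replicate 1 and 6.64 in replicate 2, below the medians of all promoter peaks, 7.97 and 9.06.

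The sequence around the start is shown for a ligand and receptor set that spans weak and strong promoter peaks and differs in motif content. The stretches run from 200 bases before the start to 19 bases after it, on the strand of the gene, as RefSeq gives them for GRCh38.p14. Capitals mark GGGCGGG (the site of SP and KLF factors) in TGFB1, ACATTCC (TEAD) in TGFB2, CCAAT (NF-Y) in TGFBR1, and TGAGTCA (AP-1) together with CCAAT in TGFBR2, each searched on both strands.
TGFB1 (chr19:41353903-41354122, minus strand): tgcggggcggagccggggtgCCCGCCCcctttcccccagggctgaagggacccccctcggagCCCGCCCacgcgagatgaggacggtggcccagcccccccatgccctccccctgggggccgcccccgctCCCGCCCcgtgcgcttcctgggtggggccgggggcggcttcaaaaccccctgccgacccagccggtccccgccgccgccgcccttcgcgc
TGFB2 (chr1:218345136-218345355, plus strand): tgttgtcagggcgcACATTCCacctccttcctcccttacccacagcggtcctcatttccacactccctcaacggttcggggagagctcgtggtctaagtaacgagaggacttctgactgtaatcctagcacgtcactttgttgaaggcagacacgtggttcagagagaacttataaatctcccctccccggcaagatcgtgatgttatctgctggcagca
TGFBR1 (chr9:99104913-99105132, plus strand): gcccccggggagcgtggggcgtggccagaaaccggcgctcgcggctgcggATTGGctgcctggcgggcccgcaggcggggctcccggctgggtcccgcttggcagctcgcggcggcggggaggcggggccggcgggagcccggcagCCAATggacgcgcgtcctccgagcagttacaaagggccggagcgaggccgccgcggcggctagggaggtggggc
TGFBR2 (chr3:30606401-30606620, plus strand): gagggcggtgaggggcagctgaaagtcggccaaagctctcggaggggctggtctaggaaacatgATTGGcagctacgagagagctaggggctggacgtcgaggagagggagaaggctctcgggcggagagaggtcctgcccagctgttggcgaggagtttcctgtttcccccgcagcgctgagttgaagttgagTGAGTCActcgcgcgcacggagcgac

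The AP-1 site of TGFBR2, chr3:30606595-30606601, ends on the first transcribed base. Among 27305 RefSeq promoters of 300 bases, 4.92% hold TGAGTCA, 35.7% CCAAT, 32.9% GGGCGGG and 3.48% ACATTCC. Of the 9 genes, 1 held the AP-1 spelling, 3 CCAAT (TGFBR1, TGFBR2 and SMAD4), 2 GGGCGGG (TGFB1 and SMAD3) and 1 ACATTCC. A match in these letters is a description and not a bound site.

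**Figure D1:**
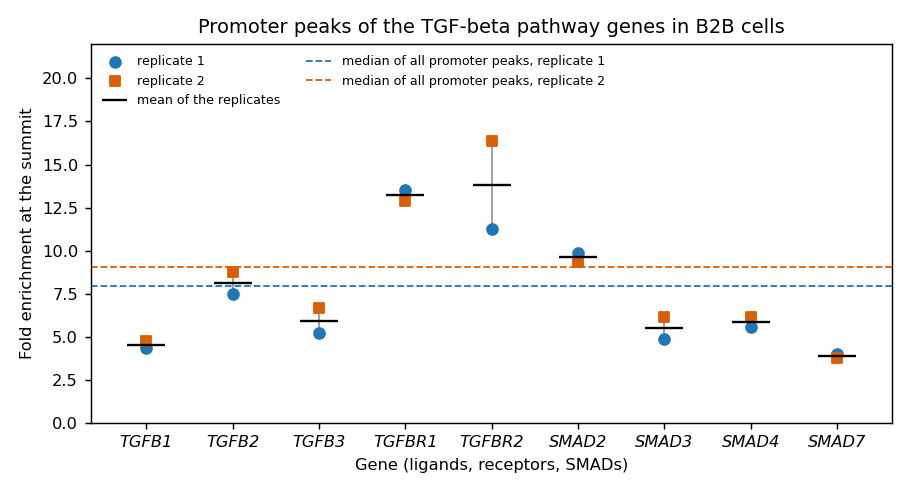
Fold enrichment at the summit of the strongest promoter peak of each gene, by replicate (circles, replicate 1; squares, replicate 2; bars, their mean), with dashed lines at the median of all promoter peaks of each replicate. TGFBR1, TGFBR2 and SMAD2 lie above both lines, and TGFB1 and SMAD7 are lowest, at means of 4.54 and 3.88.

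Of the ligands, TGFB2 (chr1:218345336-218444619, plus strand) had the strongest promoter peak. It reached a fold enrichment of 7.47 and 8.73 in replicates 1 and 2, from 56 and 67 fragments, or 8.10 ± 0.894 (SD, n = 2). The peak was broad, 1117 and 1084 bp, although this promoter had the fewest CpG of the 9 genes, 32 in 1 kb against a median of 66 over all genes. TGFB3 (chr14:75958097-75983011, minus strand) had 2 separate promoter regions. The region over the start reached 5.20 and 6.64, and the one centred 440 bp upstream of the start 5.02 and 6.34.

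TGFB1 (chr19:41301587-41353922, minus strand), the founding ligand of the family, had a promoter peak near the limit of detection. It reached 4.33 in replicate 1, from 24 fragments, and 4.76 in replicate 2, from 20 fragments. The 2 peaks did not lie in the same place. That of replicate 1, chr19:41354037-41354204, had its summit 211 bp upstream of the start, and that of replicate 2, chr19:41353669-41353959, had its summit 134 bp downstream, in exon 1. A stretch of 77 bases separated them, so the promoter counts as having a peak in each replicate but no shared region. The replicate 1 summit also lay 36 bp from an annotated start of TMEM91 that is not its canonical start. Genome-wide, the strongest peaks of the replicates failed to overlap at 420 of the 10457 promoters with a peak in both, or 4.02%.

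Both receptor promoters lay far above the ligands. TGFBR1 (chr9:99104038-99154192, plus strand), the type I receptor kinase, reached 13.5 and 12.9, from 112 and 113 fragments, over a region of 1225 bp. TGFBR2 (chr3:30606601-30694142, plus strand), the type II receptor that binds ligand first, reached 11.3 and 16.4, from 64 and 77 fragments. Its 2 values differed more than those of any other of the 9 promoters, with 13.8 ± 3.61 against 13.2 ± 0.450 for TGFBR1, and the ranges of the 2 receptors overlapped. In replicate 2 the TGFBR2 peak was stronger than 91.9% of promoter peaks, and in replicate 1 than 73.5%.

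Among the SMADs, SMAD2 (chr18:47808957-47931146, minus strand) had the strongest promoter peak, at 9.88 and 9.34. SMAD4 (chr18:51028528-51085045, plus strand), the shared partner of all receptor-regulated SMADs, reached 5.54 and 6.12. SMAD3 (chr15:67063763-67195173, plus strand) reached 4.85 and 6.12. The 1 kb centred on its start held 137 CpG, as many as at TGFBR1, whose mean fold enrichment was 13.2 against 5.48 for SMAD3.

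The promoter of the inhibitor SMAD7 (chr18:48919853-48950965, minus strand) was the weakest, at 3.98 in replicate 1 and 3.78 in replicate 2, from 22 and 18 fragments. These peaks covered only the upstream edge of the promoter window, with the nearest peak edge 810 and 885 bp from the start, and no peak of either replicate lay over the start itself. Of all promoters with a peak in both replicates, 7.65% likewise had no peak over the start in either. In replicate 2 only 0.569% of promoter peaks were weaker. The nearest peaks over an annotated SMAD7 start were inside the gene: a region in intron 2, 8.21 kb from the canonical start, lay 24 bp from the start of another annotated transcript and reached 6.58 and 8.38.

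In the order of the 9 mean values, TGFBR2 and TGFBR1 could not be separated by the range of their replicates, nor could TGFB3, SMAD4 and SMAD3 from their neighbours among these 3. The other steps, from TGFBR1 to SMAD2, SMAD2 to TGFB2, TGFB2 to TGFB3, SMAD3 to TGFB1 and TGFB1 to SMAD7, did not overlap. The step from SMAD3 to TGFB1 was narrow, since the lower SMAD3 value was 4.85 and the higher TGFB1 value 4.76. With 2 replicates these ranges are a description only.

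Beyond their promoters, the 9 loci held many open regions. Peaks of both replicates met in 64 of the 85 regions. This is 75.3%, with a 95% Wilson interval of 65.2 to 83.2 that covers counting error only, against 67.4% of all regions. A further 4 were found in replicate 1 alone and 17 in replicate 2 alone, and these 21 were weak, with a median fold enrichment of 4.53 against 6.62 for the 64. Of the 64, 8 lay at the promoter of the locus gene, 10 at promoters of other genes, and 46 were distal, with a summit more than 1 kb from the canonical start of every protein-coding gene. Of these 46, 5 had another annotated start of a protein-coding gene within 1 kb of the summit. Starts of noncoding genes were not searched.

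**Figure D2:**
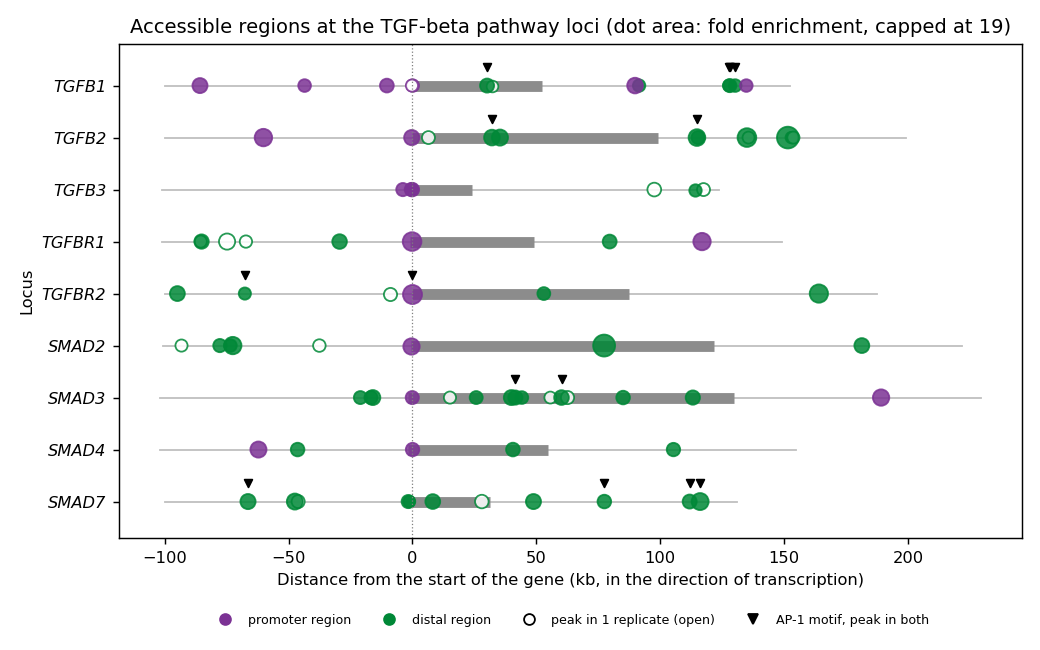
Position of the 85 regions at the 9 loci, as distance from the start of the gene in kb along the direction of transcription; thick bars are the genes, thin lines the loci, filled dots have a peak in both replicates, open dots in 1, and triangles mark an AP-1 motif in regions with both. Dot area follows the fold enrichment up to a cap. SMAD3 carries 7 of its 10 distal regions inside the gene, whereas the 9 of SMAD7 spread over both sides and the strong regions of TGFB2 lie past its end.

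Each of the 9 loci had at least 1 distal region, as did 69.2% of the loci of all protein-coding genes. The median was 5 per locus against 1 over all genes, and 1.55 per 100 kb against 0.474, since long genes have longer loci. All but TGFB3 lay above the median of all loci. SMAD3 had 10, more than 99.1% of loci, and SMAD7 had 9, more than 98.6%. TGFB2 had 6, TGFB1 and SMAD2 had 5 each, TGFBR2 had 4, TGFBR1 and SMAD4 had 3 each, and TGFB3 had 1. These small counts moved with the library used: from replicate 2 alone, TGFBR1 had 6 and TGFB3 had 3. SMAD7 was the densest at 3.89 per 100 kb, above 99.5% of loci. This is the gene whose own start had no peak over it. Its 9 distal regions include those 1.26 and 1.71 kb upstream, just outside the promoter window. Another lay 24 bp from a different annotated SMAD7 start.

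**Figure D3:**
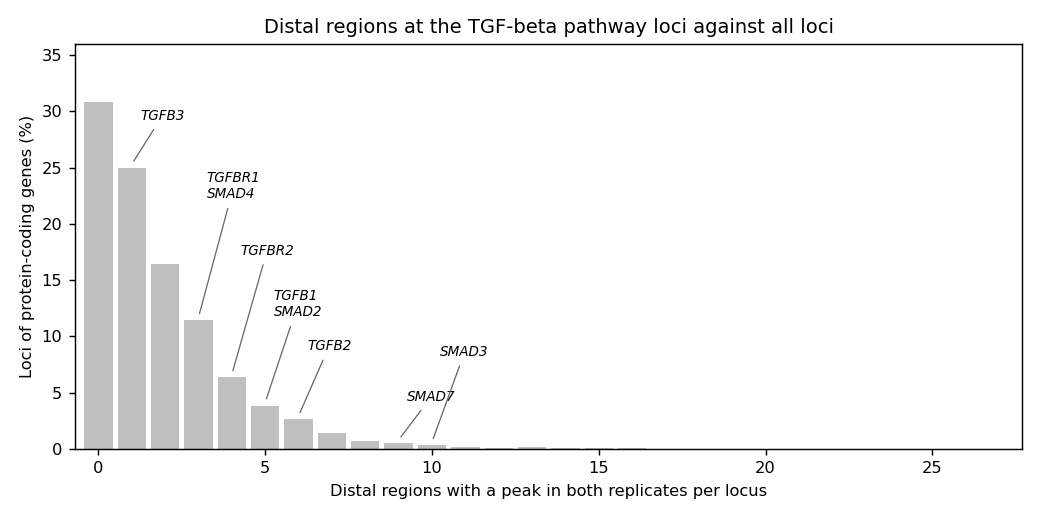
Share of the loci of all protein-coding genes, in percent, by the number of distal regions with a peak in both replicates, with the 9 genes named at their counts. TGFB3 sits at 1 region, near the middle of all loci, and SMAD7 and SMAD3 sit at 9 and 10.

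The distal regions were of common strength. Their median fold enrichment was 6.54, against 6.73 for all 15065 distal regions with a peak in both replicates. By replicate the medians were 5.72 and 7.32, against 6.06 and 7.48 for all. Of the 46, 31 were higher in replicate 2, as were 77.5% of all distal regions, and 7 differed by more than 1.5 times between the replicates, all 7 higher in replicate 2, while 19.9% of all distal regions differed by as much in either direction. Across the 64 regions with both values Spearman's rho between the replicates was 0.755; the regions of a replicate share its library and depth. Of the 46, 14 lay inside the gene, 13 of them in its introns, 15 upstream and 17 downstream, at a median of 73.0 kb from the start.

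**Figure D4:**
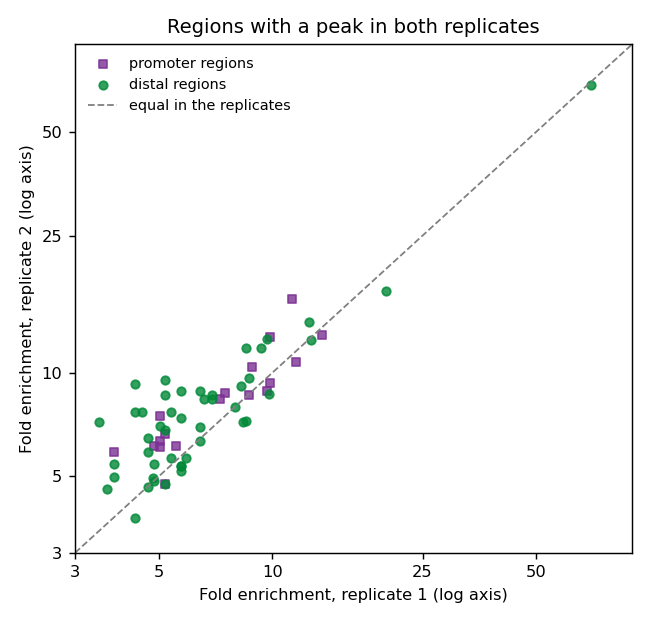
Fold enrichment in replicate 1 against replicate 2, both on log axes, for the 64 regions found in each (squares, promoter regions; circles, distal regions; dashed line, equal values). Most distal regions lie above the line, 31 of 46, and a single region, in SMAD2, stands apart near 69.8 and 68.3.

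At the TGFB2 locus the distal regions were the strongest of the 9, with a median of 9.68. The 2 in intron 1, at 32.1 and 35.3 kb from the start, reached 8.28 and 9.12, and 9.81 and 8.64. The other 4 lay downstream of the gene within the noncoding gene LINC02869. The strongest, chr1:218496608-218497020, lay 151 kb from the start and reached 20.0 in replicate 1 and 17.3 in replicate 2, from 118 and 113 fragments, well above the TGFB2 promoter in both replicates. The next, chr1:218479835-218480542, reached 12.5 and 14.02. The summit sequence of the strongest region is shown because it holds no TGAGTCA. Capitals mark the looser spelling TGANTCA, 76 bases from the summit.
TGFB2 distal region (chr1:218496711-218496911, plus strand): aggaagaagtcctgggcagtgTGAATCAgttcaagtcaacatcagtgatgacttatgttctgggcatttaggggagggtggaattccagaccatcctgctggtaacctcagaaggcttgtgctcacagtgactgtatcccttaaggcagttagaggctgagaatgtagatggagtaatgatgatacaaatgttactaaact

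The TGFB1 locus was gene dense and held 5 distal regions, all modest. Of these, 3 lay in intron 4 of AXL, a receptor tyrosine kinase gene that starts 135 kb downstream of the TGFB1 start. They had fold enrichments of 4.83 and 4.93, 5.72 and 5.35, and 3.64 and 4.59. Those at 5.72 and 5.35 and at 3.64 and 4.59 lay 912 and 512 bp from an annotated AXL start that is not its canonical start. The strongest, chr19:41323586-41323972, lay within the TGFB1 gene but in exon 5 of the overlapping gene CCDC97, and reached 5.72 and 7.38. The last lay 91.5 kb downstream of the TGFB1 start, at 4.68 and 4.67. It was 30 bp from an annotated start of HNRNPUL1 that is not its canonical start. At the TGFB3 locus the single distal region lay in intron 29 of TTLL5 and reached 3.81 and 5.44.

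At the receptors, the distal regions lay mostly outside the genes. TGFBR1 had 3, among them those in intron 11 of COL15A1 at 5.20 and 8.61 and 29.4 kb upstream at 5.72 and 8.84. The last lay 79.6 kb downstream of the start, at 6.41 and 6.34. In intron 16 of COL15A1, a further region reached 9.29 in replicate 2 from 40 fragments with no peak in replicate 1. TGFBR2 had its strongest distal region 164 kb from the start, in intron 14 of GADL1, at 12.6 and 12.5, close to its promoter peak in replicate 1. The next lay 94.8 kb upstream at 6.93 and 8.38. The others, in intron 3 of TGFBR2 and 67.6 kb upstream, reached at most 5.44.

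SMAD3 differed from the other SMADs in where its distal regions lay. Of the 10, 6 were in intron 1 and 1 in intron 5, and 3 lay 16.0 to 21.0 kb upstream of the start. By the mean of the replicates the strongest were one 16.0 kb upstream, at 6.93 and 8.64, and one 39.9 kb into intron 1, at 8.38 and 7.19, although in replicate 2 others stood higher. A region 60.1 kb into intron 1 lay 34 bp from the start of a shorter annotated SMAD3 transcript and reached 5.20 and 9.52. All 3 lay above the canonical promoter in each replicate, which had 4.85 and 6.12. The largest gap between replicates at this locus was in intron 5, at 4.33 and 9.29. SMAD4 had 3 distal regions of like strength, among them those in its own intron 10 at 4.50 and 7.70 and in intron 2 of ELAC1 at 5.20 and 6.80. The last lay 105 kb downstream of its start, at 5.89 and 5.66. The ranges of the 3 overlapped.

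SMAD2 had the strongest value of all 64 regions, and it needs separate reading. The region chr18:47853177-47853441, in intron 6, reached 69.8 and 68.3, from 54184 and 35739 fragments at its summit. It covers the mitochondrial pseudogene MTCO2P2, and 192 bp of it matched mitochondrial DNA at 97.4% identity. The part of mitochondrial fragments in this value was not tested. Without it, 45 distal regions remained, with a median fold enrichment of 6.52. The next SMAD2 region lay 72.5 kb upstream, at 9.70 and 12.6. A region past the end of the gene, 181 kb from its start, reached 6.41 and 8.84. The other 2, up to 77.7 kb upstream of the start, reached at most 6.48.

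SMAD7 had its strongest distal region 116 kb downstream of its start, in intron 10 of CTIF, at 9.36 and 11.8. The next, 47.4 kb upstream, was 950 bp wide and reached 8.66 and 9.66. Others lay 48.8 kb downstream of the start at 8.49 and 7.25, and 66.3 kb upstream at 7.97 and 7.93. Each of these sites outside the gene exceeded, in each replicate, every peak in the SMAD7 promoter window or just upstream of it. The region in intron 2, at 6.58 and 8.38, stood above those at 7.25 and 7.93 in replicate 2. Close to the start, a region centred 1.71 kb upstream reached 5.72 and 5.35, and another, 1.26 kb upstream, 4.33 and 3.78. The latter also contains both peaks that gave SMAD7 its promoter call: its summit lay outside the promoter window, so it counts as 1 of the 9 distal regions, while its edge reached into the window.

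This last region is shown because it holds GTCTAGAC, the SMAD palindrome to which SMAD3 and SMAD4 bind. Capitals mark the palindrome.
SMAD7 upstream (chr18:48952188-48952255, plus strand): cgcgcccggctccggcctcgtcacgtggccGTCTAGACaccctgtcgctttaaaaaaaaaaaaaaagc
The palindrome, chr18:48952218-48952225, lay at the summit of a peak of replicate 1, chr18:48952083-48952313, which had a fold enrichment of 4.33 and 24 fragments. The replicate 2 peak of the region, chr18:48951850-48952097, shared only 15 bases with it and ended 121 bases short of the palindrome. The sequence was therefore under a peak in 1 replicate only. Of all 15065 distal regions, 22 held GTCTAGAC at most 100 bp from the summit, or 0.146%, and of these 46, 1 did. The other SMAD spelling searched, AGCCAGACA (the CAGA box), was in 0 of 46 distal regions, with an upper Wilson limit of 7.71%, against 0.398% of all. It was found once at a promoter, under the replicate 2 peak in exon 1 of TGFB1.

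AP-1 was the subject of the study, and its motif TGAGTCA was the most frequent of those searched in these distal regions. At a distance of up to 100 bp from the summit, 13 of the 46 held it, or 28.3% (17.3 to 42.5), against 32.5% of all distal regions, so the share was close to the background. Up to 50 bp from the summit the share was 17.4%, against 22.3% of all, and up to 200 bp it was 37.0%, against 37.4%. All 16 sites in these regions were under a peak of both replicates, 17 to 83 bp from the summit. They were unevenly spread: 4 of the 5 distal regions of TGFB1 held one, 4 of 9 at SMAD7, 2 of 6 at TGFB2, 2 of 10 at SMAD3 and 1 of 4 at TGFBR2, and none at TGFB3, TGFBR1, SMAD2 or SMAD4. The median fold enrichment was 6.55 in the regions with the motif and 6.38 in the 33 without, against 7.08 and 6.59 over all distal regions.

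The sites below were chosen to show the motif in its setting at 5 loci, with 30 bases to either side on the plus strand. Capitals mark TGAGTCA or its reverse complement TGACTCA.
TGFB1, AXL intron 4 (chr19:41225872-41225938): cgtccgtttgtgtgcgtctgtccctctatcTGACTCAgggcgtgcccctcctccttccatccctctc
TGFB2, intron 1 (chr1:218377413-218377479): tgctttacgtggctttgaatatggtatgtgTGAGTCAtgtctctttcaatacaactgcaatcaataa
TGFB2, LINC02869 (chr1:218460083-218460149): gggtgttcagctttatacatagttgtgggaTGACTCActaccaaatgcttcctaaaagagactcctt
TGFBR2, upstream (chr3:30539008-30539074): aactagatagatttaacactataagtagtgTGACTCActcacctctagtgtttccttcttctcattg
SMAD3, intron 1 (chr15:67107146-67107212): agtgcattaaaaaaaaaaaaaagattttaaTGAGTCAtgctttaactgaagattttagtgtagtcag
SMAD7, CTIF intron 10 (chr18:48834838-48834904): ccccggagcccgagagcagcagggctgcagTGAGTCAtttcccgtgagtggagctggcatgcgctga
SMAD7, downstream (chr18:48873466-48873532): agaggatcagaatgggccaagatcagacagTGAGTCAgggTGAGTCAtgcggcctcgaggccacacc
SMAD7, upstream (chr18:49017258-49017324): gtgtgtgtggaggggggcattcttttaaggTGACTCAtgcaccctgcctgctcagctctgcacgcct

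The regions that carry these sites reached, in the order shown, 5.72 and 5.35, 8.28 and 9.12, 8.49 and 11.8, 3.81 and 4.98, 6.41 and 6.98, 9.36 and 11.8, 5.02 and 7.02, and 7.97 and 7.93 in the replicates. The SMAD7 region downstream held 2 copies, 10 bases apart from start to start. The remaining AP-1 regions were 2 more in AXL intron 4, the CCDC97 exon at TGFB1, the intron 1 region of SMAD3 next to the shorter transcript, and a second region in CTIF intron 10 at SMAD7, at 5.37 and 7.67. With the looser spelling TGANTCA, 18 of 46 regions held a match, or 39.1%, against 39.8% of all distal regions, and the 5 added regions included the 2 strongest of TGFB2.

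The other motifs were less frequent than AP-1 in these distal regions. CCAAT was in 7 of 46, or 15.2% (7.57 to 28.2), against 22.6% of all distal regions. GGGCGGG was in 5, or 10.9%, against 11.3%, and ACATTCC in 4, or 8.70%, against 10.01%. The RUNX spelling AACCACA was in 2, or 4.35%, against 7.92%, and the ETS spelling CCGGAAG in 2, or 4.35%, against 3.03%. The CREB spelling TGACGTCA and the CTCF core were in 0 of 46, against 0.730% and 0.956%.

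Other protein-coding genes start within these loci, and a distal region may belong to any of them. Of their 19 promoters 14 had a peak in both replicates and 5 had none, against 52.3% of all protein-coding promoters with both. The 5 without one at the canonical start, CCDC97, TMEM91, B3GNT8, ERICH4 and ENSG00000255730, were all at TGFB1. At that locus B9D2, HNRNPUL1, DMAC2, AXL and the shared promoter of EXOSC5 and BCKDHA were open. HNRNPUL1 was highest at 8.66 and 8.62, and B9D2 and DMAC2 also lay above TGFB1 in both replicates, whereas AXL, at 3.81 and 5.89, overlapped the TGFB1 values of 4.33 and 4.76, and EXOSC5, at 5.20 and 4.76, met them. RRP15, 60.0 kb from the TGFB2 start, reached 9.88 and 12.7, and IFT43, 3.77 kb from the TGFB3 start, 5.02 and 6.10. The shared promoter of ALG2 and SEC61B, 117 kb from the TGFBR1 start, reached 11.6 and 10.8. AAGAB and IQCH, 189 kb from the SMAD3 start, reached 8.84 and 10.4. ELAC1 and the overlapping ENSG00000267699, 62.2 kb from the SMAD4 start, reached 9.70 and 8.84. In both cases the values lay above those of the SMAD promoter.

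The rest of the pathway was read on 56 further genes, listed by role. Of these, 40 had a promoter peak in both replicates, or 71.4%, against 52.3% of all protein-coding genes. Promoter CpG was not compared for the 56. Among all genes with at least as many CpG as the lowest of the 9, the share was 68.2%. The 40 included 10 of 11 receptors and co-receptors, ACVRL1 being the exception, and 4 of 4 SMADs (SMAD1, SMAD5, SMAD6 and SMAD9). They also included 11 of 13 negative regulators and partners and 7 of 8 target genes, among them TGFBI, a secreted matrix protein, at 11.1 in both replicates. Of the ligands 3 of 9 were open (GDF11, BMP2 and BMP6), and of the genes of latency and activation 5 of 11.

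**Figure D5:**
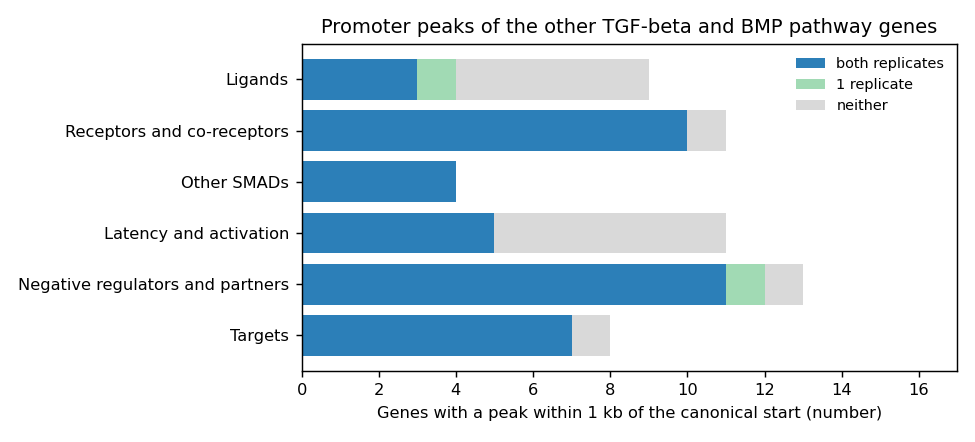
Number of the 56 further pathway genes with a promoter peak in both replicates, in 1 or in neither, by role. Receptors, SMADs, negative regulators and targets are mostly filled, whereas 5 of 9 ligands and 6 of 11 latency genes have no promoter peak.

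The ligands without a promoter peak were INHBA, INHBB, MSTN, NODAL and BMP7, and BMP4 had one in replicate 1 alone, at 4.16. The latency genes without one were LTBP3, LTBP4, ITGB6, LRRC32, NRROS and FURIN, the protease that cleaves the TGF-beta precursor. ITGB6 encodes the integrin subunit that activates latent TGF-beta in epithelia, and its locus still held 7 distal regions. By contrast ITGAV, the alpha subunit shared by the activating integrins, had the strongest promoter peak of the list, at 16.5 in both replicates. The next were ACVR1C at 14.2 and 10.9, ACVR1 at 12.9 and 12.1, ACVR2A at 12.3 and 12.2, and SMAD1 at 12.3 and 12.1, 3 of them receptors of the same superfamily. FOXH1, a SMAD partner, and JUNB, an AP-1 subunit gene and target, had no promoter peak in either replicate, and the co-repressor TGIF2 had one in replicate 2 alone, at 4.08.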

How the data were processed

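The peak lists of 2 ATAC-seq replicates of B2B cells were used as deposited. Per the study's methods, the authors aligned reads to hg38 by Bowtie2 2.4.4, took out duplicates by their own code and ran MACS2 2.2.7.1 on each replicate, keeping all reads that were left. SAMtools 1.13 is named too. The Tn5 shift, the q limit and the treatment of mitochondrial reads are not given in the sources used here. The deposited lists give for each peak a fold enrichment (a linear ratio), a −log10 p, a −log10 q and a summit; the deposited score was not used.

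Peaks overlapping by at least 1 bp were merged into regions, placed by the summit of the peak with the highest fold enrichment. Genes, canonical starts and introns came from GENCODE 44, and any other annotated start was that of a protein-coding gene. The fold enrichment and −log10 p of a peak gave its fragments at the summit, met within 0.01 for 99.9% of peaks, with an approximation for extreme p. Motifs were exact letters on both strands within 100 bp of summits; the CTCF core of 14 letters allowed 1 mismatch. Matches to mitochondrial DNA were found with blastn (BLAST 2.17.0, E at most 1e-10). RefSeq promoters matched 9 of 9 genes. Functions were checked on simulated data and recovered 1940 of 1940 fragment counts and 400 of 400 motifs. The approximation for extreme p, used for the SMAD2 region that matches mitochondrial DNA, was not among these checks. Python 3.11.15 was used, with pandas 2.3.3 and scipy 1.17.1.

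The 9 genes, the lists and the motifs were chosen with earlier results of these data known. Named were the 9 genes, the 2 strongest distal regions and every AP-1 region of each locus, neighbouring promoters, pathway genes without a promoter peak in both replicates and the 5 strongest of that list. Other genes and regions were added to these after their values were seen. The alternatives tried were each replicate alone, peaks from a −log10 q of 5 up, the strongest peaks in equal number, an overlap of 50%, promoters of 500 bp and 3 kb, any annotated start, flanks of 10, 50 and 200 kb, and other motif windows and spellings.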

Additional observations from a re-analysis of the deposited data

How the results depend on the processing

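No paired analysis was possible because there is a single group and no comparison between groups. Of 237 values recomputed, 205 stayed within the limits set (1.5 times for a count, the replicate SD or the Wilson interval otherwise). No value has a direction to change. Promoter fold enrichment from either replicate alone always lies within that SD of the mean, so those values could not leave their limit. Either replicate alone, promoters of 3 kb and any annotated start cannot remove a promoter call. Of the stricter settings each removed at least 1: SMAD7 lost its call with peaks from a −log10 q of 5 up and with promoters of 500 bp, and both SMAD7 and TGFB1 lost it with equal numbers of the strongest peaks, which left 7. The number of regions in both replicates fell from 64 to 41 with flanks of 50 kb and to 25 with 10 kb, and that of distal regions from 46 to 29 and 16, as shorter loci hold fewer. TGFB3 then had 0 distal regions at both flanks. With single replicates the counts were 73 to 83 regions and 51 to 63 distal regions, and 53.2% to 58.0% of all protein-coding promoters had a peak. That background share was 51.5% from a −log10 q of 5 up, 49.3% with equal numbers of peaks, 51.0% and 54.7% with promoters of 500 bp and 3 kb, and 56.2% with any annotated start. With any annotated start the strongest promoter peak rose to a mean of 7.36 at SMAD3 and 7.48 at SMAD7. TGFB1 had 3 distal regions with equal numbers of peaks and 2 with any annotated start, and single-locus counts at TGFBR1 and TGFB3 rose to 6 and 3 without replicate 1. The AP-1 share ran from 17.4% within 50 bp to 39.1% with TGANTCA, and the share of all distal regions from 22.3% to 39.8%. Leaving out the region that matches mitochondrial DNA, an alternative added after seeing the data, changed no count by more than 1. The lists give peaks and not reads, so sites under the limit of 16 or 13 fragments, and changes between conditions, could not be read.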
